A study of Mus musculus with 8 samples.

Results

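The genes described here are the 200 most abundant Zfp genes of the adult mouse heart, which encode zinc finger proteins. They were chosen by their level, as the protein-coding genes whose symbols start with Zfp and a digit, ranked by their mean normalized read count over all 8 libraries. Among the 23045 genes measured, 367 met the first condition, and the 200 of highest mean were kept. The ranking used the mean level over both genotypes and not the difference between them. The mice of both genotypes carried loxP-flanked alleles of Mettl3, the gene of the methyltransferase that writes N6-methyladenosine (m6A) into RNA. Mettl3 KO mice (Mettl3 lox/lox with αMHC-MerCreMer) also carried a Cre recombinase that is made in cardiomyocytes and becomes active with tamoxifen, and WT mice (Mettl3 lox/lox) did not. Per the study's methods, both genotypes were injected with tamoxifen at 100 µg per g of body weight at an age of 10 to 16 weeks, so all groups share the floxed alleles and the drug. Total RNA from the heart was sequenced in 4 libraries per genotype, and the comparison asks which Zfp transcripts differ once Mettl3 is deleted in heart muscle cells. RNA of fibroblasts, endothelial cells and other cells that keep Mettl3 is part of every library, and the WT libraries come from mice without the Cre transgene, so an effect of the transgene and one of the deletion cannot be told apart.

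Most Zfp genes encode proteins with C2H2 zinc fingers, short modules in which a pair of cysteines and a pair of histidines hold a zinc ion while an adjoining helix reads bases of DNA. Fingers stand in tandem, joined by a conserved linker, and arrays of them read longer stretches of DNA. Many of these proteins carry an N-terminal KRAB box, which recruits the co-repressor TRIM28 and through it the histone methyltransferase SETDB1, and KRAB zinc finger proteins are known for silencing transposable elements. The KRAB genes arose by duplication, lie in clusters and have long last exons that encode the whole finger array. A few Zfp symbols denote other proteins, among them the CCCH proteins of the Zfp36 family, which bind AU-rich elements of mRNAs and hasten their decay.

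To show what these genes share, coding bases of a finger and its linker are given for 7 members whose values differed between the genotypes. Each is the first finger followed by a linker in the transcript with the longest coding sequence (GENCODE M21, GRCm38, transcript strand), in lower case, with the 18 bases that encode the 6 residues of the linker in capitals.
Zfp52: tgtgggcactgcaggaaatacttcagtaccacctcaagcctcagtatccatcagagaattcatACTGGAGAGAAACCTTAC
Zfp948: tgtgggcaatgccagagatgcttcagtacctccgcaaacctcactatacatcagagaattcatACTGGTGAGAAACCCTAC
Zfp563: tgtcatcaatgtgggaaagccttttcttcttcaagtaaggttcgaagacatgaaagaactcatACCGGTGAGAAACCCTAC
Zfp697: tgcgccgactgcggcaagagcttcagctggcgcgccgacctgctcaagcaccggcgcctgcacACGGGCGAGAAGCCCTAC
Zfp651: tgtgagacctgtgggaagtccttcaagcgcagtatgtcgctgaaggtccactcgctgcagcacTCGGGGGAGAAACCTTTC
Zfp770: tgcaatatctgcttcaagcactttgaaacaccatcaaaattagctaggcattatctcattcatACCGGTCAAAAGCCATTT
Zfp971: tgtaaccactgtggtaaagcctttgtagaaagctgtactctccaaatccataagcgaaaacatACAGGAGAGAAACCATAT

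The fingers of Zfp52 and Zfp948, which are neighbours on chromosome 17, matched at 69 of 81 positions, or 85.2%, the closest of 36 pairs among 9 members that passed the test and have such a finger of 81 bases. The lowest pair, Zfp651 and Zfp770, matched at 39.5%, and the median over the pairs was 52.5%. In the linker Zfp563 and Zfp948 differed at 1 of 18 bases.

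The 8 libraries were of like size. The sum of normalized read counts lay between 2839589 and 2881849 in WT and between 2840184 and 2916986 in Mettl3 KO libraries, and the reads behind them came to 2731618 to 3061260 and 2631906 to 3052899. A count of 0 would allow up to 3 reads, a CPM of 0.980 to 1.14, which covers counting error only, and every member lay well above it. Mettl3 (ENSMUSG00000022160, mm39 chromosome 14, 52532298 to 52542585, minus strand) was at 105, 133, 118 and 107 in WT libraries and at 74, 68, 69 and 78 in Mettl3 KO libraries, with a log2 fold change of -0.67 (SE 0.10 and, in limma, adjusted p = 0.000184). Cardiomyocyte markers were present in each library, with 8 genes summing to 22651 to 23953 in WT and 21115 to 23784 in Mettl3 KO libraries, and 1 of the 8, Ryr2, was lower. The atrial genes Myl7, Sln and Bmp10 were higher in Mettl3 KO by limma, of which limma voom called 2, with sums of 0 to 38 in WT and 33 to 541 in Mettl3 KO libraries. WT replicate 3 and Mettl3 KO replicate 1 were the lowest of their genotypes, so counts are also given without this pair. Nothing in the labels says that the libraries come from separate hearts, and p-values then measure the spread between these libraries.

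Levels of the members spanned a wide range. The median member had a mean of 129 normalized read counts over the 8 libraries, the lowest 54.1 and the highest 3522. Zfp106, an RNA-binding zinc finger protein needed by motor neurons and muscle, was at 3454, 3393, 3570 and 3506 in WT and at 3858, 3452, 3620 and 3320 in Mettl3 KO libraries. The next were Zfp638, a nuclear protein known from adipocyte differentiation, with a mean of 1329, Zfp644 with 912, Zfp652 with 876 and Zfp292 with 801. Because longer transcripts collect more reads, levels between genes were compared per kb of transcript. On that scale Zfp106 still came first, at 388 normalized read counts per kb. Zfp207, a protein of the mitotic spindle, followed with 340 and Zfp740 with 240. The median was 32.7 over the 199 members with a matched transcript. The length was that of the transcript with the longest coding sequence, 1562 bases for Zfp207 and 989 for Zfp740, against a median of 4069. Reads of a whole gene were divided by it, so a short transcript model raises the value. At the rank limit Zfp553 (rank 199) had a mean of 54.4, and Zfp513 (rank 200) shared a mean of 54.1 with Zfp202 and Zfp595 just outside it, where the order of the table decided between the 3 tied genes.

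As a whole the members changed little. All 200 were tested, and 15 (7.5%) passed in limma at an adjusted p below 0.05, of which 12 rose and 3 fell in Mettl3 KO hearts. Of all 20313 genes tested the share was 7.91%, with 4.72% higher and 3.19% lower, and leaving out Mettl3 KO replicate 3 lowered the 1607 genes behind it to 1005. Among 8455 other protein-coding genes with a mean at or above that of the lowest member, 13.6% were called, 8.49% higher and 5.09% lower. The share of members was thus near that over all genes and below that of genes of like level, and no test of that difference was made. Values of the genotypes did not overlap in 24 of the 200 members, 18 higher and 6 lower, against 11.5% of all genes tested and 18.8% of the other protein-coding genes of like level. Without Mettl3 KO replicate 2 the higher members numbered 7, and without WT replicate 1 or 4 or Mettl3 KO replicate 3 or 4 the lower members numbered 1. Without WT replicate 3 and Mettl3 KO replicate 1 together, a setting chosen after seeing the data, 11 members were higher and 3 lower.

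The members' log2 fold changes had a median of 0.03, quartiles of -0.06 and 0.11 and extremes of -0.40 and 0.65. Of the 200, 120 (60.0%) were above 0 and 80 below, whereas 50.3% of the other protein-coding genes of like level were above 0, with a median of 0.00. The 160 tested Zfp genes below the rank limit had a median of 0.06, with 97 above 0 and 63 below. Summed over the members, WT libraries held 40051, 39310, 40180 and 39538 normalized read counts, and Mettl3 KO libraries 41393, 40478, 40150 and 40348. That was 1.39% ± 0.0118 of a WT library and 1.41% ± 0.0179 of a Mettl3 KO library (SD, n = 4), and the ranges overlapped.

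**Figure D1:**
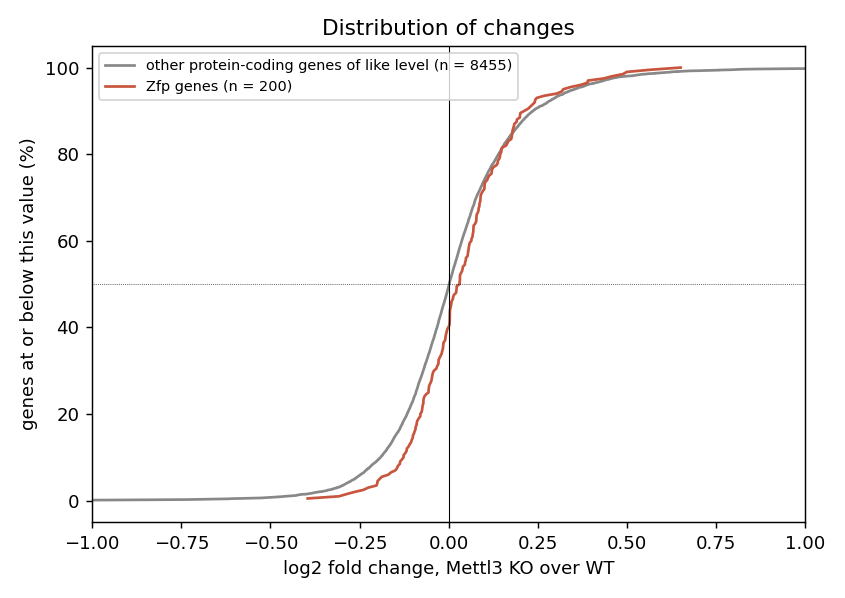
Cumulative share of genes (vertical axis, %) at or below each log2 fold change of Mettl3 KO over WT (horizontal axis), for the 200 Zfp genes in red and for 8455 other protein-coding genes of like level in grey, drawn between -1 and 1. The red line crosses 50% at 0.03 and lies to the right of the grey line over the lower part of the range, and 60.0% of Zfp genes against 50.3% of the others lie above 0.

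**Figure D2:**
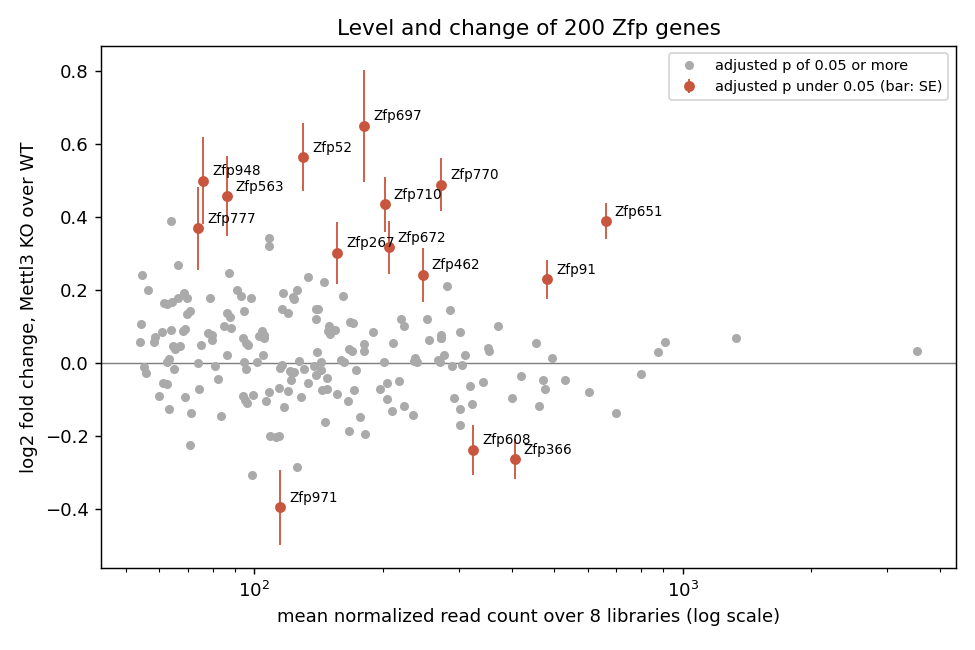
Mean normalized read count over 8 libraries (horizontal axis, log scale) against the log2 fold change of Mettl3 KO over WT (vertical axis) for the 200 Zfp genes. Red points with SE bars are the 15 genes with a limma adjusted p under 0.05, 12 above and 3 below the line at 0, and grey points are the other 185.

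Of the 12 members that rose, 6 passed in each of the 18 alternative settings: Zfp651, Zfp52, Zfp770, Zfp710, Zfp672 and Zfp91. Zfp651 (ENSMUSG00000013419, mm39 chromosome 9, 121588396 to 121600808, plus strand), rank 7 by level, was at 533, 569, 607 and 581 in WT and at 760, 716, 784 and 739 in Mettl3 KO libraries. Each Mettl3 KO library was above each WT library, the means were 572.5 ± 30.7 and 749.8 ± 29.1 (SD, n = 4), and the log2 fold change was 0.39 (SE 0.05 and, in limma, adjusted p = 2.1e-05), the smallest p of any member. Its encoded protein holds 7 C2H2 fingers and no KRAB pattern.

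Zfp52 (ENSMUSG00000051341, mm39 chromosome 17, 21755801 to 21782863, plus strand) was at 115, 97, 103 and 103 in WT and at 133, 162, 173 and 154 in Mettl3 KO libraries. The genotypes were apart by more than the spread within either, at 104.5 ± 7.55 and 155.5 ± 16.9 (SD, n = 4), which is 0.57 as log2 fold change (SE 0.09 and, in limma, adjusted p = 0.000368). Zfp770 (ENSMUSG00000040321, mm39 chromosome 2, 114023942 to 114031950, minus strand) was at 242, 224, 210 and 232 in WT and at 371, 309, 299 and 300 in Mettl3 KO libraries. Mettl3 KO replicate 1 was the highest, and the other Mettl3 KO libraries also lay above every WT library, with a log2 fold change of 0.49 (SE 0.07 and, in limma, adjusted p = 0.000137) and means of 227 ± 13.5 and 319.8 ± 34.5 (SD, n = 4). Both encode tandem C2H2 arrays, with 14 fingers and a KRAB pattern in Zfp52 and 10 fingers without that pattern in Zfp770.

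Zfp710 (ENSMUSG00000048897, mm39 chromosome 7, 79674562 to 79743921, plus strand) was at 154, 195, 170 and 167 in WT and at 241, 225, 232 and 228 in Mettl3 KO libraries. The Mettl3 KO libraries were close together and all higher, at 231.5 ± 6.95 against 171.5 ± 17.1 (SD, n = 4), and the log2 fold change was 0.44 (SE 0.08 and, in limma, adjusted p = 0.000636). Its span overlaps that of Gm44951 on the same strand, as the span of Zfp777 overlaps that of Gm45738, and what this does to their counts was not tested. Zfp672 (ENSMUSG00000049755, mm39 chromosome 11, 58205940 to 58221165, minus strand) was at 173, 189, 188 and 182 in WT and at 257, 216, 213 and 229 in Mettl3 KO libraries. Its lowest Mettl3 KO value was above the highest WT value, and the log2 fold change was 0.32 (SE 0.07 and, in limma, adjusted p = 0.00801).

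Zfp91 (ENSMUSG00000024695, mm39 chromosome 19, 12744384 to 12773490, minus strand) encodes a ubiquitin ligase that acts in non-canonical NF-κB signalling. It was at 434, 434, 450 and 459 in WT and at 573, 511, 507 and 495 in Mettl3 KO libraries. The rise was 1.17-fold and without overlap, with a log2 fold change of 0.23 (SE 0.05 and, in limma, adjusted p = 0.00978).

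Zfp697 (ENSMUSG00000050064, mm39 chromosome 3, 98289777 to 98661128, plus strand), which encodes an RNA-binding protein known from skeletal muscle inflammation and regeneration, had the highest log2 fold change over all 8 libraries. It was at 84, 154, 161 and 172 in WT and at 221, 175, 223 and 255 in Mettl3 KO libraries. WT replicate 1 lay far below the other WT libraries, and Mettl3 KO replicate 2 was only just above the highest WT value. The log2 fold change was 0.65 (SE 0.15 and, in limma, adjusted p = 0.00988), the means were 143 ± 39.9 and 218.5 ± 32.9 (SD, n = 4), and over the alternatives the change ranged from 0.42 to 0.76. The lowest was without WT replicate 1, where Zfp697 still passed and Zfp52, at 0.61, was the highest. The limma value after dropping Mettl3 KO replicate 3 was 0.64 (adjusted p = 0.0608) and after dropping Mettl3 KO replicate 4 it became 0.57 (adjusted p = 0.0721), so the call rests on each of these libraries.

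Zfp948 and Zfp563 are KRAB genes of chromosome 17 at lower levels. Zfp948 (ENSMUSG00000067931, mm39 chromosome 17, 21787270 to 21808961, plus strand) was at 62, 62, 55 and 72 in WT and at 89, 99, 74 and 95 in Mettl3 KO libraries, with a log2 fold change of 0.50 (SE 0.12 and, in limma, adjusted p = 0.0103). The genotypes were parted by 2 normalized read counts, between 72 and 74, and the call was lost without Mettl3 KO replicate 2 (0.45, in limma adjusted p = 0.0538) and without WT replicate 3 and Mettl3 KO replicate 1 together (0.44, in limma adjusted p = 0.0651). Zfp563 (ENSMUSG00000067424, mm39 chromosome 17, 33308284 to 33329679, plus strand) was at 76, 71, 77 and 65 in WT and at 111, 107, 99 and 83 in Mettl3 KO libraries, with a log2 fold change of 0.46 (SE 0.11 and, in limma, adjusted p = 0.0110). All Mettl3 KO values were higher, and leaving out Mettl3 KO replicate 2 ended this call as well (0.42, in limma adjusted p = 0.0513).

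The other 3 increases were close to the threshold. Zfp267 (ENSMUSG00000033883, mm39 chromosome 3, 36205166 to 36224491, plus strand) was at 136, 137, 160 and 126 in WT and at 155, 179, 179 and 176 in Mettl3 KO libraries, and WT replicate 3 was above Mettl3 KO replicate 1. Its log2 fold change was 0.30 (SE 0.09 and, in limma, adjusted p = 0.0299), and it did not pass without WT replicate 1, 2 or 4 or without Mettl3 KO replicate 2, 3 or 4 (changes of 0.26 to 0.29 in limma, adjusted p = 0.0788 to 0.105). Zfp462 (ENSMUSG00000060206, mm39 chromosome 4, 54945048 to 55083563, plus strand), a large protein with 33 fingers that acts with heterochromatin proteins, was at 241, 221, 244 and 200 in WT and at 268, 295, 250 and 258 in Mettl3 KO libraries. Its log2 fold change of 0.24 (SE 0.07 and, in limma, adjusted p = 0.0469) passed in 4 of 18 alternatives, and leaving out any library except WT replicate 3 ended the call (changes of 0.18 to 0.27 in limma, adjusted p = 0.0520 to 0.177). Zfp777 (ENSMUSG00000071477, mm39 chromosome 6, 48001122 to 48025845, minus strand) was at 59, 74, 59 and 66 in WT and at 79, 79, 81 and 95 in Mettl3 KO libraries, with a log2 fold change of 0.37 (SE 0.11 and, in limma, adjusted p = 0.0497). It passed in 3 of 18 alternatives, and leaving out any library except WT replicate 2 ended the call (changes of 0.31 to 0.39 in limma, adjusted p = 0.0511 to 0.172). None of the alternatives turned the direction of these 3 genes.

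Only 3 members fell, and Zfp366 was the one that passed in all 18 alternatives. Zfp366 (ENSMUSG00000050919, mm39 chromosome 13, 99321331 to 99387164, plus strand), also called DC-SCRIPT, is known as a co-regulator made by dendritic cells. It was at 432, 438, 421 and 481 in WT and at 369, 360, 382 and 362 in Mettl3 KO libraries. The means of 443 ± 26.3 and 368 ± 9.95 (SD, n = 4) did not overlap in their values, and the log2 fold change was -0.26 (SE 0.06 and, in limma, adjusted p = 0.00353). Beside this decrease, endothelial markers summed to 4825 to 4975 in WT and 4407 to 4786 in Mettl3 KO libraries, with 3 of 8 lower (Tie1, Kdr and Cdh5), 1 higher (Vwf) and none of the 8 at 0. Macrophage markers summed to 1005 to 1199 and 963 to 1185, and their part in the result was not tested. In bulk RNA, fewer cells of a type and less RNA per cell cannot be told apart.

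Zfp608 (ENSMUSG00000052713, chromosome 18) was at 350, 350, 343 and 357 in WT and at 335, 310, 260 and 286 in Mettl3 KO libraries. The WT libraries lay within 14 normalized read counts of each other and the Mettl3 KO libraries were all lower and more spread, with a log2 fold change of -0.24 (SE 0.07 and, in limma, adjusted p = 0.0323). Without WT replicate 1, 2 or 4 or Mettl3 KO replicate 2, 3 or 4 it was -0.26 to -0.18 and did not pass (limma, adjusted p = 0.0538 to 0.146). Zfp971 (ENSMUSG00000074519, mm39 chromosome 2, 177665077 to 177675815, plus strand), a KRAB gene with 12 fingers, was at 134, 115, 133 and 139 in WT and at 115, 107, 86 and 89 in Mettl3 KO libraries. The genotypes touched at 115, and the log2 fold change of -0.40 (SE 0.10 and, in limma, adjusted p = 0.0184) was the lowest among the members over all 8 libraries. Leaving out WT replicate 1 or 4, or Mettl3 KO replicate 3 or 4, gave -0.38 to -0.33, which did not pass (limma, adjusted p = 0.0585 to 0.0916).

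**Figure D3:**
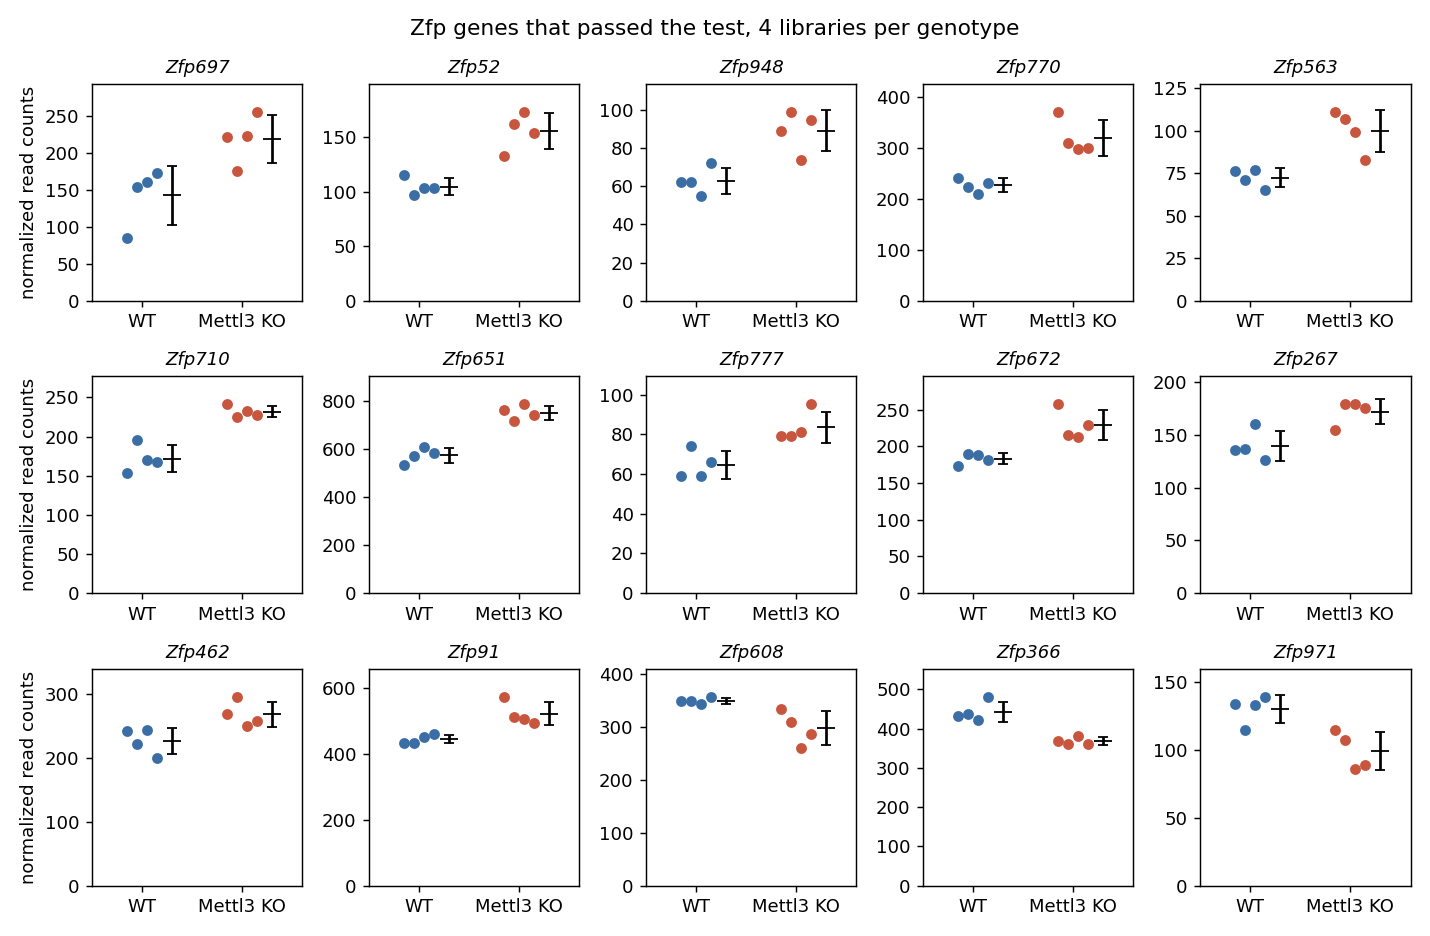
Normalized read counts (vertical axes, from 0) of the 15 Zfp genes with a limma adjusted p under 0.05, with 4 WT libraries in blue, 4 Mettl3 KO libraries in red and the mean ± SD in black. In 13 panels the genotypes do not overlap, whereas in Zfp267 WT replicate 3 is above Mettl3 KO replicate 1 and in Zfp971 the genotypes touch at 115.

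The transcript of Zfp971 shares sequence with those of other genes. Of its windows of 72 bases, the length of the reads, 22.1% occur in a transcript of another gene, most often Gm14387, and reads that map to several places had been removed. The first such window in the coding sequence lies in a stretch of 133 bases, from base 60 to 192 of the transcript, that is shared with Gm14440 (GENCODE M21, GRCm38, transcript strand, lower case).
Zfp971: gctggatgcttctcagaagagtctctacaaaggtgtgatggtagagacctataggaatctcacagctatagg

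Among the 199 members with a transcript, 135 had no shared window, 64 had some and 16 had at least 10%, up to 40.1% in Zfp729b. Zfp971 was the only called gene of those 16. Zfp91 shared 0.421% of its windows and Zfp267 0.408%, and the 12 other called members had none.

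A further 11 members did not overlap between the genotypes and did not pass the test. Zfp180 was the closest, with WT libraries at 96, 91, 102 and 93 and Mettl3 KO libraries at 109, 144, 108 and 120, a log2 fold change of 0.32 (SE 0.10 and, in limma, adjusted p = 0.0516). It passed in 5 of 18 alternatives: with a pseudocount of 4, with no filter or a minimum mean of 10, and without Mettl3 KO replicate 1, alone or with WT replicate 3 (0.31 to 0.40 in limma, adjusted p = 0.0343 to 0.0498). Among them were abundant members whose libraries agreed closely, such as Zfp638 with 1271, 1301, 1323 and 1296 against 1385, 1351, 1367 and 1341, where the difference was 0.07 (SE 0.04 and, in limma, adjusted p = 0.298). Zfp143, a factor bound at many promoters, was at 124, 123, 121 and 119 in WT and at 101, 114, 110 and 99 in Mettl3 KO libraries, with a log2 fold change of -0.20 (SE 0.09 and, in limma, adjusted p = 0.181). The others were Zfp644, Zfp827, Zfp866, Zfp780b, Zfp276, Zfp280b, Zfp51 and Zfp944.

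A list of 37 Zfp genes with known roles was then read out, of which 33 are members. In the list 3 (8.11%) were called by limma, beside 7.91% of all genes in either direction. All 3 rose (Zfp697, Zfp91 and Zfp462) and none fell. Of all genes 4.72% rose, and of the other protein-coding genes of like level 8.49%. At an unadjusted p under 0.05, 4 of the list were higher and 2 lower, and limma voom called 2. The median log2 fold change was 0.03, as over all members. Zfp521, a partner of early B-cell factors in precursor cells, was at 259, 273, 264 and 245 in WT and at 267, 304, 319 and 318 in Mettl3 KO libraries. Mettl3 KO replicate 1 lay within the WT range, the log2 fold change was 0.21 (SE 0.07 and, in limma, adjusted p = 0.0555), and it passed in 3 alternatives: at 0.21 with a minimum mean of 10 (limma, adjusted p = 0.0432), at 0.27 when Mettl3 KO replicate 1 was left out (adjusted p = 0.00936) and at 0.28 without it and WT replicate 3 (adjusted p = 0.0195).

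Zfp445, Zfp568 and Zfp809, known for acting on imprinted genes or retroviral sequences, did not pass. Zfp445, a KRAB protein that guards genomic imprints, was at 717, 669, 725 and 824 in WT and at 691, 660, 666 and 645 in Mettl3 KO libraries, with a log2 fold change of -0.14 (SE 0.05 and, in limma, adjusted p = 0.140). Zfp57, its better known partner in imprinting, lay below the rank limit, with WT libraries at 24 to 34 and Mettl3 KO libraries at 21 to 38. Zfp568, a repressor of an Igf2 promoter, changed by 0.07 (SE 0.07 and, in limma, adjusted p = 0.670) and Zfp809, which silences murine leukaemia virus, by 0.08 (SE 0.08 and, in limma, adjusted p = 0.643). The mRNA decay factors Zfp36l1 and Zfp36l2 changed by 0.03 and -0.02 (SE 0.09 each), with limma adjusted p = 0.914 and adjusted p = 0.935. Zfp148 and Zfp281, related factors that bind GC-rich promoters, changed by -0.08 and -0.06 (SE 0.05 and 0.07), with limma adjusted p = 0.382 and adjusted p = 0.752. Zfp423, the relative of Zfp521, was at 74, 60, 70 and 56 in WT and at 81, 60, 67 and 88 in Mettl3 KO libraries, with overlapping values.

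The members were next split by the protein they encode. A KRAB pattern (a hydrophobic residue, phenylalanine and a serine or threonine ahead of glutamate and tryptophan) was found in 86 of 199 members. Of these 5 rose and 1 fell, with a median log2 fold change of 0.06 and 54 above 0. Of the 113 without the pattern 7 rose and 2 fell, with a median of 0.01 and 66 above 0. The shares called, 6.98% and 7.96%, were both close to the 7.91% of all genes. Without Mettl3 KO replicate 2 the 6 called KRAB genes became 2, and without WT replicate 1 or 4 or Mettl3 KO replicate 3 or 4 they became 3. A pattern with the serine or threonine left free found 89 members and the same counts of 5 and 1.

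C2H2 fingers were counted as a pair of cysteines and a pair of histidines with 12 residues between the pairs, and the members held 2175 in all, with a median of 10 and up to 36 per protein. The 27 members with 1 to 4 fingers had a median log2 fold change of -0.05, with 11 above 0 and Zfp608 as their only called gene. The 55 with 5 to 9 fingers had a median of 0.04, the 70 with 10 to 14 fingers 0.02 and the 43 with 15 or more 0.05, with 30 of the latter above 0. Of the called members 7 higher and 2 lower had 10 to 14 fingers, which is 12.9% of that class, the one with the most members, against 13.6% of other protein-coding genes of like level and 7.91% of all genes. With 5 to 9 fingers 3 (5.45%) were called, with 15 or more 2 (4.65%) and with 1 to 4 fingers 1 (3.70%). Differences between the classes were not tested. Across the 199 members the number of fingers and the log2 fold change had a Spearman correlation of 0.16, a weak relation across genes that share the same 8 libraries and, in part, ancestry and level. The mean level correlated with the change at -0.18.

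**Figure D4:**
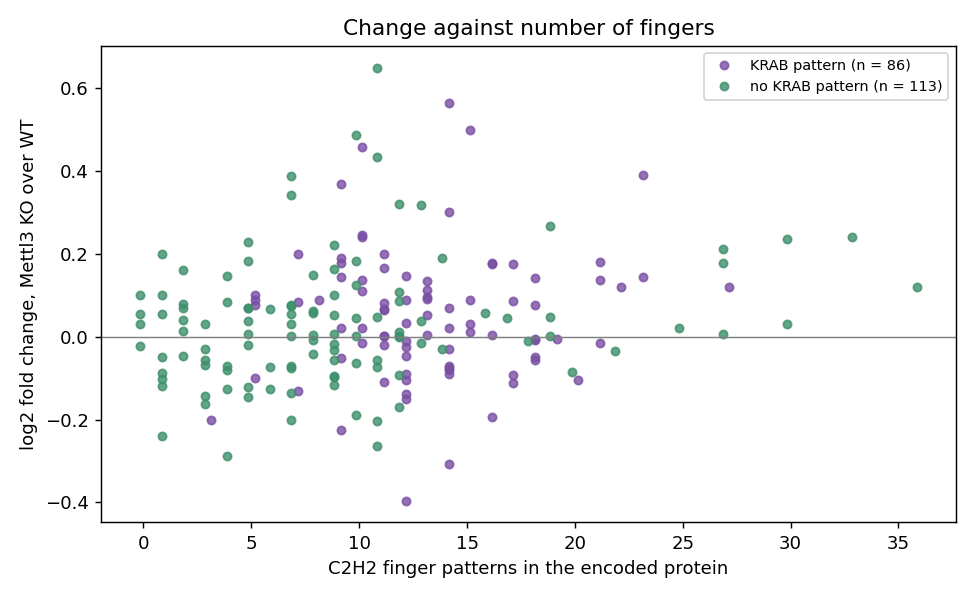
Number of C2H2 finger patterns in the encoded protein (horizontal axis) against the log2 fold change of Mettl3 KO over WT (vertical axis) for 199 Zfp genes, with the 86 that hold a KRAB pattern in purple and the 113 that do not in green. Points of every finger class lie on both sides of the line at 0, and the Spearman correlation is 0.16.

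Because KRAB proteins work through a shared complex, 22 genes of the KRAB co-repressor machinery were compared in the same way. None passed in limma, where 1 was higher and 3 were lower at an unadjusted p under 0.05, and limma voom called 0 on the values and on the recovered reads. Trim28, the scaffold that KRAB boxes bind, was at 191, 201, 184 and 210 in WT and at 191, 175, 177 and 177 in Mettl3 KO libraries, with a log2 fold change of -0.12 (SE 0.07 and, in limma, adjusted p = 0.349). Setdb1, the methyltransferase that Trim28 recruits, was at 190, 200, 215 and 203 in WT and at 225, 245, 236 and 228 in Mettl3 KO libraries. Its values did not overlap, and the log2 fold change was 0.21 (SE 0.07 and, in limma, adjusted p = 0.0580). Leaving out WT replicate 3 gave 0.24 and a call (limma adjusted p = 0.0469), as did leaving out WT replicate 3 and Mettl3 KO replicate 1 together (0.26, in limma adjusted p = 0.0406). Cbx3, a heterochromatin protein of the HP1 family, was at 73, 65, 63 and 70 in WT and at 59, 55, 52 and 49 in Mettl3 KO libraries. It was lower in every Mettl3 KO library without passing the test, with a log2 fold change of -0.33 (SE 0.12 and, in limma, adjusted p = 0.0979). The median of the 22 was -0.04, with 16 below 0, against -0.01 over all genes tested.

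The members lie on 20 chromosomes, with 39 on chromosome 7 and 25 on chromosome 17. On chromosome 7, 28 of 39 had a log2 fold change above 0 and 1 was called. When members starting within 500 kb of the next were joined, 99 members fell into 27 runs and 101 lay outside. Of the 15 called members 4 were in runs (4 of 99) and 11 outside (11 of 101), beside 7.91% of all genes, and the difference was not tested. Without Mettl3 KO replicate 2 those in runs became 1. With a distance of 200 kb there were 20 runs with 74 members, of which again 4 were called.

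The largest run (mm39 chromosome 17, 21229165 to 23412226) held 11 members, of which 2 rose (Zfp52 and Zfp948), 8 were above 0 and the median log2 fold change was 0.17. Of all genes 4.72% rose, no test of the run was made, and without Mettl3 KO replicate 2 Zfp948 did not pass (limma, adjusted p = 0.0538). Zfp52 ends 4406 bases before Zfp948 starts on the same strand. Zfp51, on the other side of Zfp52, was at 59, 64, 62 and 55 in WT and at 73, 65, 78 and 74 in Mettl3 KO libraries. The genotypes did not overlap, and the log2 fold change of 0.27 did not pass (SE 0.11 and, in limma, adjusted p = 0.173). Further along the run Zfp943, Zfp758 and Zfp945 were near 0. Zfp52 and Zfp948 had no exact window of 72 bases in common with an annotated transcript of another gene. Near matches and the rest of the genome were not searched.

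The second run of chromosome 17 (32984470 to 33613615) held 10 members with a median of 0.01, and Zfp563 was the called one. A run of 8 members on chromosome 7 (29467977 to 29869175) had a median of 0.03 and a run of 7 on chromosome 13 (67269724 to 67877292) one of 0.12, with 0 called in each by limma. In the latter, Zfp748 had the highest log2 fold change, 0.39, from 43, 47, 69 and 63 in WT to 71, 66, 88 and 64 in Mettl3 KO libraries, with overlapping values (SE 0.15 and, in limma, adjusted p = 0.122).

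**Figure D5:**
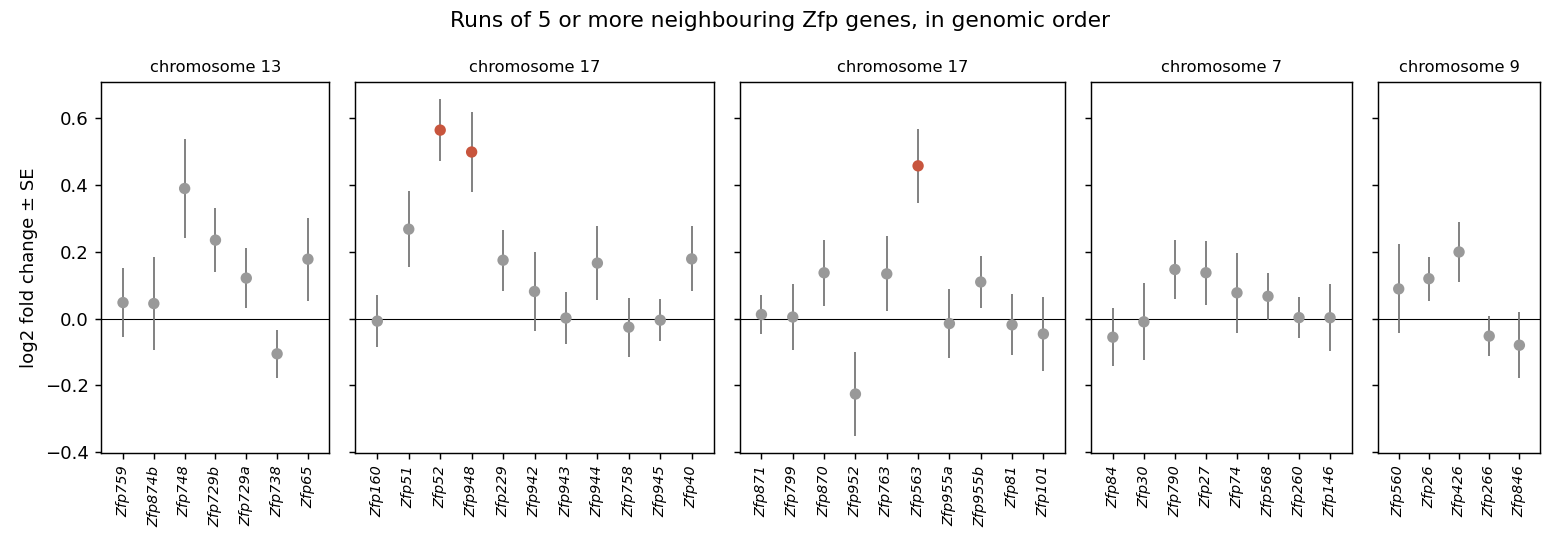
Log2 fold change of Mettl3 KO over WT with its SE (vertical axis) for the members of the 5 runs of 5 or more neighbouring Zfp genes, in genomic order along each chromosome and not to scale of distance. Red points are the called genes Zfp52, Zfp948 and Zfp563, and in the largest run, of 11 genes on chromosome 17, 8 lie above 0.

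The transcripts of the members differ in build from those of other genes. Their last exon had a median length of 3006 bases, or 84.8% of the transcript, against 1275 bases and 47.5% over 14322 tested protein-coding genes, and in 182 of 199 members (91.5%) the last exon was also the longest, as in 84.7% of those genes. Median GC content was 44.6% against 50.5%. The letters GGACT, the best known form of the sequence that METTL3 methylates, were searched on the transcript strand. They occurred in 189 of the members' 199 transcripts and in 91.8% of all tested protein-coding genes, at a median of 0.805 and 1.06 per kb. Of the 15 called members 14 held it, with Zfp971 as the exception. Across members the number per kb and the log2 fold change had a Spearman correlation of 0.17, against 0.02 over all tested protein-coding genes, and the length of the last exon one of 0.06 in both. A match of letters is no measured m6A site, and m6A was not measured in these libraries.

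Other zinc finger families were read out for comparison, and their shares called, 3 of 40 for Zbtb (7.5%) and 1 of 16 for Zc3h (6.25%), were near the 7.91% of all genes. Of the Zbtb genes 2 rose, Zbtb38 by 0.30 (SE 0.05 and, in limma, adjusted p = 0.000793) and Zbtb22 by 0.30 (SE 0.08 and, in limma, adjusted p = 0.0269), and Zbtb46, a factor of classical dendritic cells, fell by 0.26 on the log2 scale (SE 0.08 and, in limma, adjusted p = 0.0373). Zbtb46 was at 211, 218, 239 and 196 in WT and at 187, 191, 176 and 167 in Mettl3 KO libraries. Among the Zc3h genes Zc3h7b fell by 0.19 on the log2 scale (SE 0.05 and, in limma, adjusted p = 0.0294). No gene of the Zscan (9 tested), Zkscan (11), Klf (15) and Zcchc (11) families passed in limma or limma voom, where at an unadjusted p under 0.05 there were 2, 2, 1 and 1. The 4 called genes of these families became 1 after dropping WT replicate 1 or Mettl3 KO replicate 3, and 2 after dropping WT replicate 2 or Mettl3 KO replicate 4.

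Of the 160 tested Zfp genes below the rank limit 3 were called (1.88%, beside 7.91% of all genes). Zfp977 was at 14, 18, 21 and 12 in WT and at 30, 28, 35 and 25 in Mettl3 KO libraries, with a log2 fold change of 0.84 (SE 0.22 and, in limma, adjusted p = 0.0164). Zfp37 rose by 0.57 (SE 0.14 and, in limma, adjusted p = 0.0123), and Zfp985 was at 26, 29, 36 and 25 against 23, 13, 15 and 19, with a log2 fold change of -0.71 (SE 0.22 and, in limma, adjusted p = 0.0439). None of these 3 overlapped between the genotypes.

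Markers of some cell types moved with the genotype as well. Fibroblast markers summed to 3648 to 4172 in WT and to 4711 to 5671 in Mettl3 KO libraries, 7 of 8 were higher, with Tcf21 as the exception, and none was at 0. Their median log2 fold change was 0.40. Smooth muscle and pericyte markers summed to 4502 to 4901 and 4191 to 4496. Of these 8 only Abcc9 passed, which was lower, while 4 were above 0, the median log2 fold change was 0.03 and 2 were higher and 2 lower at an unadjusted p under 0.05. Of 7 lymphocyte markers tested and of 8 macrophage markers none passed in limma or limma voom, and 1 of each was lower at an unadjusted p under 0.05. All 3 atrial genes were higher in Mettl3 KO by limma, and limma voom called 2 of the 3. Sln rose by 2.67 (SE 0.56 and, in limma, adjusted p = 0.00375), though Mettl3 KO replicate 1 (10) was below WT replicate 1 (12). Myl7 rose by 2.56 (SE 0.68 and, in limma, adjusted p = 0.0218). Without WT replicate 3 its change was 1.41, and it did not pass without Mettl3 KO replicate 2, 3 or 4 (limma, adjusted p = 0.0890 to 0.124). Bmp10 was at 0 throughout WT and had values of 0, 195, 158 and 358 after the knockout. It did not pass in limma voom on the values (adjusted p = 0.543) or on recovered reads (adjusted p = 0.490). The part of these atrial genes and cell types in the changes of the members was not tested.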

How the data were processed

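Total RNA of mouse hearts was sequenced as stranded single-end reads of 72 bases. According to the methods and the submitters' processing notes, trimming (Trimmomatic 0.39) and alignment to mm39 with Ensembl annotation (STAR 2.7.11a) came first, and the authors then removed duplicates (Picard 3.1.1) and multi-mapping reads, counted reads on exons by strand (featureCounts 2.0.4) and normalized the counts (DESeq2 1.36.0). The deposited values are a score, normalized read counts rounded to whole numbers and not raw counts. Removal of multi-mapping reads lowers genes with near-identical copies. The reads of each library were recovered from the spacing of low values.

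Genes with a mean of at least 1 (20313) were tested between the genotypes by limma 3.58.1 (R 4.3.3), which was given log2(value + 1) and allowed a trend of variance with level. The p was two-sided and Benjamini-Hochberg adjusted over all genes, and a gene was called under 0.05. On this scale the change of low genes is understated. The comparison was simulated with 20313 genes at a dispersion of 0.005, with 200 changed among those with a mean of at least 20. The fit recovered 19.4% of changes of 0.3, 85.1% of 0.6 and 98.5% of 1 on the log2 scale. Of 142 calls 7 were false, and 0 genes were called when nothing was changed. The real data gave 1607 calls and every member had a mean of at least 54.1, so these shares are not those of the members.

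Proteins and transcripts came from GENCODE M21 (GRCm38) by gene identifier, in place of the RefSeq proteins planned, for 199 of 200 members (not Zfp469), and none of its coordinates was used. Coordinates were taken from the deposited file (mm39). Members and lists were chosen with earlier results of these data known. Named genes were Mettl3, the 5 most abundant members, those beside the rank limit, called members without overlap (up to 12 in each direction), and the lists of co-repressors and known roles. Zfp267 and Zfp971 (which overlap), members that did not pass, other families and Zfp genes below the rank limit were named after their values were seen where they fall outside this rule. Alternatives were other pseudocounts, filters and scalings, limma voom, a replicate block and each library left out. The 18 settings also included leaving out WT replicate 3 and Mettl3 KO replicate 1 together, which was chosen after seeing the data. Python 3.11.15 was used for the summaries.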

Additional observations from a re-analysis of the deposited data

Results flagged for a closer look

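Within each genotype the highest and the lowest library were compared with the other 3, by the share of the group's range that the gap to the next library takes up (Dixon's test at 95%). Over 44 groups searched 4 were marked, and chance gives 2.2. Mettl3 KO replicate 1 was marked for Zfp770 (0.861, at 371 against 299 to 309), for Zfp267 (0.875, at 155 against 176 to 179) and for Zfp292 (0.886, at 762 against 801 to 806). Mettl3 KO replicate 4 was marked for Zfp777 (0.875, at 95 against 79 to 81). Without Mettl3 KO replicate 1 the calls of Zfp770 and Zfp267 held, and without Mettl3 KO replicate 4 Zfp777 was at 0.31 (limma adjusted p = 0.172).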

How the results depend on the processing

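Over 18 alternative settings none of the 15 called members turned its direction, while 68 of the 200 members did in at least 1 setting, the largest log2 fold change among them being 0.09 in size. Of the called members 7 passed in every setting and 8 were lost in at least 1. Higher and lower members numbered 10 and 3 with a pseudocount of 0.5, quantile normalization, equal library totals, limma voom on the values or on recovered reads, 12 and 3 with a pseudocount of 4, 13 and 3 with no filter and 14 and 3 with a mean of at least 10. Leaving out each library in turn gave 7 to 12 higher and 1 to 4 lower members, 9 to 16 called of which 9 to 14 were shared with the 15, 1005 to 1593 called genes in all, 2 to 6 called members with a KRAB pattern, 1 to 4 called members in runs, 1 to 4 called genes of related families and 0 to 1 called co-repressor genes. The co-repressor called was Setdb1, which made 1 with a mean of at least 10 and 1 without WT replicate 3 and Mettl3 KO replicate 1 together. Replicate numbers did not pair the libraries (correlations of deviations of 0.0522, 0.0421, -0.0414 and 0.0878 between libraries of the same number), and with the replicate block 10 members were higher and 3 lower, all 13 shared with the 15. The causes of the lost calls were not tested. With 2631906 to 3061260 recovered reads per library and 4 libraries per genotype, a member without a call is not shown to be unchanged. Changes near 0.3 on the log2 scale were mostly missed in simulated data. Because the simulation had fewer calls and included genes below the members' levels, the share of such changes missed among members is not known.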
